A study of Mus musculus with 10 samples.

Results

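*Gpnmb*, *Spp1*, *Itgax*, *Cst7* and *Igf1* were followed by symbol through the single cell RNA-seq counts of mouse microglia from adult brain, cultured brain slices and *in vitro* culture. These 5 genes of 18292 gene symbols were selected on their measured counts in these same libraries, including the absence of *Gpnmb* from the adult tables. Their levels between groups are therefore given as a description, and no test is attached to them. All 5 passed the filter on low counts, which left 12157 genes, and tests are given only for other genes and for measures within libraries.

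The cells were live C57BL/6 mouse cells sorted by FACS as CD11b high and CD45 intermediate, and were sequenced with the 10x Genomics 3' kit v2. Each of the 5 groups had 2 libraries, stated in the series to be biological replicates. They were adult brain taken without culture, organotypic slices after 1 day, 1 week or 3 weeks in culture, and mixed glia kept *in vitro* for 3 weeks. Slices and mixed glia came from neonatal mice, with slices pooled as required and the meninges removed before the mixed glial culture, so culture, age and tissue preparation cannot be told apart in any comparison with adult. No inflammatory stimulus was given to any group. The study states that human PDGF was added to the slice medium at each change, and states none for the mixed glia. The 2 media also differed in serum, so medium is a further difference between slices and mixed glia. Adult replicate 1 and slice 3 weeks replicate 1 carried the study label TST11200 and the other 8 libraries TST11247.

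Disease-associated microglia are a state described around amyloid plaques, in demyelination and in the developing white matter, in which genes of lipid handling, lysosomes and phagocytosis rise while homeostatic genes fall. The 5 genes are among its usual markers. *Gpnmb* encodes a transmembrane glycoprotein of lysosomes and the cell surface that is a target of the MiT/TFE transcription factors. *Spp1* encodes osteopontin, a secreted ligand of integrins and of CD44. *Igf1* encodes insulin-like growth factor 1, a secreted trophic factor. *Itgax* encodes the integrin alpha chain CD11c, which pairs with the beta 2 chain. *Cst7* encodes cystatin F, an endolysosomal inhibitor of cathepsins.

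The bases upstream of each gene are shown because the 5 genes were followed as 1 state and yet took different courses below. The RefSeq promoter table on GRCm38.p6, the build called mm10 in the submitters' processing notes, held all 5 genes, each on the plus strand. The 250 bases before the RefSeq start lie at chr6:49036268-49036517 for *Gpnmb*, chr5:104434861-104435110 for the first of 2 RefSeq entries of *Spp1*, chr7:128129300-128129549 for *Itgax*, chr2:150570165-150570414 for *Cst7* and chr10:87860861-87861110 for *Igf1*. Each stretch is written 5′ to 3′, and capitals mark a match on either strand to 1 of 4 motifs: CACGTG (the E-box of the MiT/TFE factors), TGAGTCA (AP-1), GAGGAA (the PU.1 core) or TGTGGTTT (RUNX).
Gpnmb: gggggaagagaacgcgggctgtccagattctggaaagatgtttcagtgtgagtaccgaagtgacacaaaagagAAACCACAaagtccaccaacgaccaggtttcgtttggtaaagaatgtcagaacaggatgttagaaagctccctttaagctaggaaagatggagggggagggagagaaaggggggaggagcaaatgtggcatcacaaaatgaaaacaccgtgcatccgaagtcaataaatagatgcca
Spp1: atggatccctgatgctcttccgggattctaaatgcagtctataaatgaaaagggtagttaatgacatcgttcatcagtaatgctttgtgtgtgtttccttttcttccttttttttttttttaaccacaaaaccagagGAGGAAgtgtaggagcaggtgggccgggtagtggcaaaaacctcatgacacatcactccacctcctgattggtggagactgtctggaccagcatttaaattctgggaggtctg
Itgax: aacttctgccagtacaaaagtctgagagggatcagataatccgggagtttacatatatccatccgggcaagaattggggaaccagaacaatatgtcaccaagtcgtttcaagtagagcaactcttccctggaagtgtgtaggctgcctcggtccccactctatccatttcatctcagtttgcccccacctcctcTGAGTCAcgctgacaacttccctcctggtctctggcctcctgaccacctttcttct
Cst7: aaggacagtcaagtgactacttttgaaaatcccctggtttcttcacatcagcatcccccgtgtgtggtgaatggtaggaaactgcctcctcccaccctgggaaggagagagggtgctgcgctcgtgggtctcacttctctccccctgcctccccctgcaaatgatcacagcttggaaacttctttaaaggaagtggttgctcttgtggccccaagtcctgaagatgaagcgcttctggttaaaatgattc
Igf1: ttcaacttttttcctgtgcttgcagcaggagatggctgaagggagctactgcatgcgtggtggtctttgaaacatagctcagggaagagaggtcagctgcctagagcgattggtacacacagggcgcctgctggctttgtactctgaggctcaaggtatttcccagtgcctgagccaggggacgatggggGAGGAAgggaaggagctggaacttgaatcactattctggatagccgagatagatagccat

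*Gpnmb* held 1 match, to the RUNX letters on the minus strand, which 1.57% of 27025 promoters of this length also held. *Spp1* and *Igf1* each held GAGGAA, which was in 23.1% of promoters. The second *Spp1* entry, at chr5:104435942-104436191, held none of the 4 motifs and is not printed. *Itgax* held the AP-1 letters, found in 4.43% of promoters. *Cst7* held none of the 4 motifs, and none of the 5 held CACGTG in this window, against 6.05% of promoters. No motif was shared by more than 2 of the 5 stretches, and the matches are a description of letters in a window of 250 bases.

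The tables held 19637 barcodes, of which 19059 cells were kept, with 61 to 3799 cells per library, median depths of 1858 to 13966 UMIs per cell and totals of 385373 to 39689540 UMIs. Pairs of libraries shared at most 23 barcodes. All 8 microglia markers had UMIs in every library, at 5094 to 33144 CPM summed, but not all were kept *in vitro*. There *C1qa* (7469 and 6775 CPM) and *Fcrls* (1811 and 1535 CPM) led the sum, and *Csf1r* and *Cx3cr1* were at 379.9 to 987.8 CPM. *P2ry12* and *Tmem119* were at 23.6 to 60.02 CPM *in vitro*, against 2660.9 to 7397.5 CPM in adult. *Siglech* (0.385 and 0.0561 CPM) and *Sall1* (0.321 and 0.0842 CPM) were nearly absent *in vitro*. Neutrophil markers stood apart in both slice 1 day libraries and in slice 1 week replicate 1 (7946, 23214 and 41484 CPM summed, all 12 of 12 markers with UMIs) against 23.0 to 1033 CPM in the other 7 libraries. These 3 libraries held 57, 105 and 23 cells with at least 5% of their UMIs from the neutrophil markers, called neutrophil-rich here. Monocyte markers summed to 356 to 1480 CPM in the slice 1 day and 1 week libraries and to 6.03 to 233 CPM elsewhere. Erythroid markers summed to 1852 CPM in adult replicate 1 and 3463 CPM in slice 1 day replicate 1 (5 of 5 with UMIs in both) and to 0 to 1.02 CPM in the other 8 libraries. Markers of border macrophages, the macrophages of the meninges and vessels, summed to 4565 and 4425 CPM *in vitro* (9 of 9 with UMIs, led by *Ms4a7* and *Pf4*), to 151 to 515 CPM in the slices (6 to 9 of 9, with *Lyve1* at 0 in slice 1 week replicate 2 and in both slice 3 weeks libraries) and to 15.2 and 9.56 CPM in adult (9 and 6 of 9, with *Lyve1*, *Cbr2* and *Clec10a* at 0 in replicate 2). Not all members followed the sum. *Lyve1* was at 0.706 and 0.309 CPM *in vitro* and 4.46 and 6.08 CPM at slice 1 day. *Cd163* was at 0.803 and 1.24 CPM *in vitro* and 2.10 and 1.54 CPM at slice 1 day.

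*Gpnmb* was at 0 in adult and was higher at each later slice time, with its highest level *in vitro*. Normalized levels in CPM (UMIs scaled to library totals, with TMM factors) were 0 in both adult libraries, 18.3 and 21.5 at slice 1 day, 71.1 and 87.0 at 1 week, 236 and 151 at 3 weeks and 599 and 760 *in vitro*, for replicates 1 and 2. No 2 neighbouring groups in this order overlapped. The adult libraries held 0 *Gpnmb* UMIs in 7326 cells. Set against a floor of 3 counts over both adult libraries, *Gpnmb* was at least 142-fold higher at slice 1 day, at least 565-fold at 1 week, at least 1381-fold at 3 weeks and at least 4851-fold *in vitro*. On the log2 scale these bounds were 7.15, 9.14, 10.43 and 12.24, and without adult replicate 1, the deeper adult library, they were 5.73, 7.72, 9.02 and 10.88. Within culture the log2 fold changes were 1.95 ± 0.27 (SE) from 1 day to 1 week, 1.31 ± 0.26 from 1 week to 3 weeks and 1.81 ± 0.23 from slice 3 weeks to *in vitro*. In bulk sums of this kind, fewer cells with a transcript and less of it per cell cannot be told apart, so shares of cells follow below. The sum of the border macrophage markers was also at its highest *in vitro*, though *Lyve1* and *Cd163* were not, and the part of such cells in this level was not tested.

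*Spp1* took the reverse course within the slices, being highest at 1 day. Its levels were 5.05 and 8.37 CPM in adult, 10974 and 11538 CPM at slice 1 day, 5648 and 6056 CPM at 1 week, 4391 and 1253 CPM at 3 weeks and 3893 and 6669 CPM *in vitro*. Every cultured library lay above both adult libraries, which differed 1.66-fold, while the *in vitro* range overlapped those of slice 1 week and slice 3 weeks. The log2 fold changes against adult were 10.73 ± 0.71 (SE) at 1 day, 9.79 ± 0.68 at 1 week, 8.74 ± 0.66 at 3 weeks and 9.64 ± 0.68 *in vitro*. Slice 3 weeks was 3.99-fold below slice 1 day (SE 0.48 on the log2 scale). The 2 slice 3 weeks libraries differed 3.50-fold from each other and carry different study labels. With the TST11247 libraries alone, the log2 fold change of slice 3 weeks against adult was 7.22 and that against slice 1 day -3.17. In adult the few UMIs were concentrated, since 5 cells held 46 of the 69 *Spp1* UMIs of replicate 1 and 50 of the 65 of replicate 2. Slice 1 week replicate 2, the smallest library, was as concentrated, with 1202 of its 2367 *Spp1* UMIs in 1 cell and 72.8% in 5 cells, so that its level and its place in the order rest on few cells. In the other cultured libraries 5 cells held at most 29.8%.

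*Igf1* was nearly absent in adult and was present at every slice time and *in vitro*. Its levels were 0.879 and 1.16 CPM in adult, 264 and 228 CPM at slice 1 day, 382 and 414 CPM at 1 week, 246 and 221 CPM at 3 weeks and 676 and 714 CPM *in vitro*. Slice 1 day and slice 3 weeks overlapped, slice 1 week lay above both, and *in vitro* lay above all slice libraries. The log2 fold changes against adult were 7.94 ± 0.22 (SE) at 1 day, 8.63 ± 0.23 at 1 week, 7.87 ± 0.22 at 3 weeks and 9.44 ± 0.23 *in vitro*. From slice 3 weeks to *in vitro* the log2 fold change was 1.57 ± 0.15.

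*Cst7* set slice 3 weeks apart from every other group. Its levels were 21.9 and 14.3 CPM in adult, 27.5 and 28.3 CPM at slice 1 day, 42.5 and 81.9 CPM at 1 week, 917 and 1669 CPM at 3 weeks and 7.68 and 7.24 CPM *in vitro*. No neighbouring groups overlapped in the order *in vitro*, adult, slice 1 day, slice 1 week and slice 3 weeks. The log2 fold change of slice 3 weeks was 6.15 ± 0.38 (SE) against adult, 4.47 ± 0.38 against 1 week and 5.53 ± 0.37 against 1 day, where *Cst7* ranked 19 of 12157 genes from the top. Against adult it was 0.62 ± 0.33 at 1 day and 1.67 ± 0.38 at 1 week. *In vitro* it was -1.29 ± 0.32 against adult and -7.44 ± 0.40 against slice 3 weeks, a 173-fold lower level.

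*Itgax* was low in every group, with 2 to 514 UMIs per group, and followed neither *Gpnmb* nor *Spp1*. Its levels were 3.00 and 2.96 CPM in adult, 19.4 and 13.8 CPM at slice 1 day, 0.988 and 2.56 CPM at 1 week, 8.15 and 21.0 CPM at 3 weeks and 0.0963 and 0.393 CPM *in vitro*. Slice 1 day and slice 3 weeks overlapped and lay above adult, with log2 fold changes of 2.45 ± 0.49 (SE) and 2.33 ± 0.47. The 2 slice 3 weeks libraries differed 2.58-fold and carry different study labels. With the TST11247 libraries alone the slice 3 weeks value was 2.82. *In vitro* it lay below adult, at -3.52 ± 0.63, and below slice 3 weeks, at -5.84 ± 0.57. The *in vitro* level rests on 17 UMIs, and the value against adult was -2.77 without *in vitro* replicate 1 and -4.68 without replicate 2. The slice 1 week value rests on 1 UMI in each library, a ratio to adult of 0.477 with a counting interval (95%, exact) of 0.0566 to 1.80. Of those 2 UMIs, 1 was in a neutrophil-rich cell, and without such cells the fitted log2 fold change against adult was -1.95 in place of -1.05. The 6 markers of dendritic cells, which also express CD11c, summed to 0.832 to 14.8 CPM over the 10 libraries (1 to 6 of 6 with UMIs), with *Clec9a* at 0 in 7 of them.

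Between them, both libraries lay above both adult libraries for 5 of the 5 genes at slice 1 day, 4 of 5 at 1 week, 5 of 5 at 3 weeks and 3 of 5 *in vitro*. The same held for 38.4%, 27.2%, 31.5% and 38% of all tested genes. *Itgax* at 1 week lay below both adult libraries, as did *Itgax* and *Cst7* *in vitro*, where 45.7% of tested genes did so. These counts describe the choice of the genes and nothing was read from them. The 3 genes higher *in vitro* were *Gpnmb*, *Spp1* and *Igf1*. *Gpnmb* and *Igf1* had their highest libraries *in vitro*, *Spp1* at slice 1 day and *Cst7* and *Itgax* at slice 3 weeks.

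**Figure D1:**
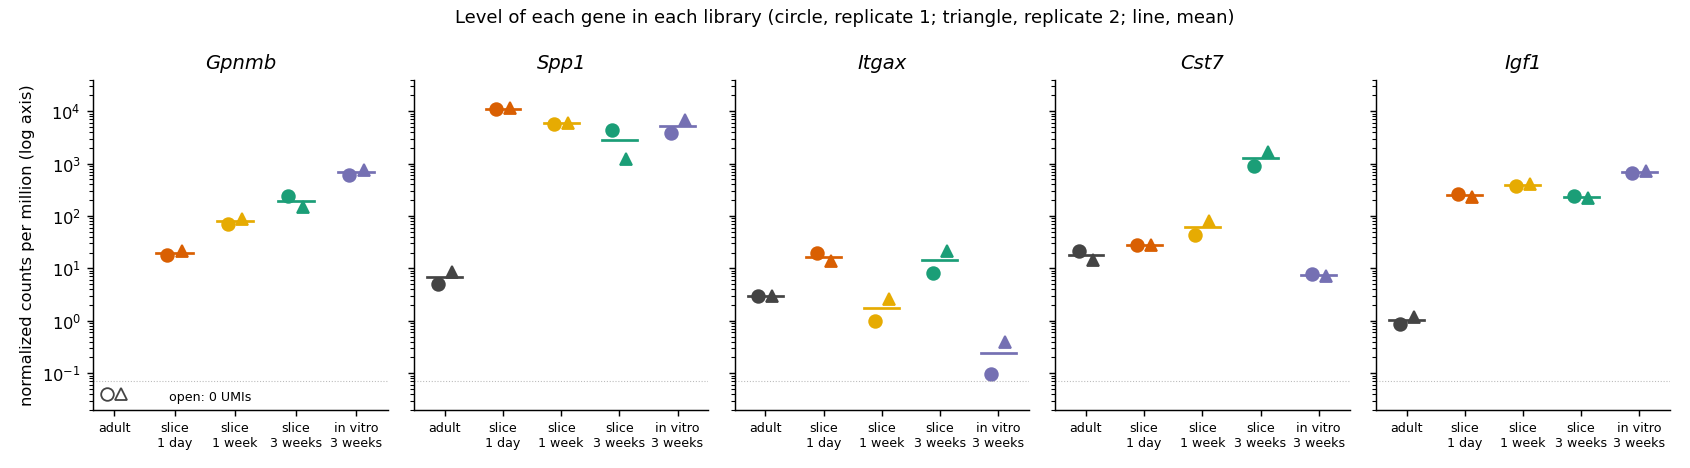
Normalized CPM on a log axis for each of the 5 genes in each of the 10 libraries, with circles for replicate 1, triangles for replicate 2 and a line at the group mean; open symbols at the bottom are libraries with 0 UMIs. *Gpnmb* is at 0 in adult and 599 and 760 CPM *in vitro*, *Spp1* is highest at slice 1 day, and *Cst7* reaches 917 and 1669 CPM only at slice 3 weeks.

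Shares of cells with a UMI were compared after each cell had been thinned to 1800 UMIs, since median depth differed between libraries, and shallower cells were left out (3386 of 3799 and 1909 of 3527 adult cells were kept). *Gpnmb* was seen in 39.3% and 53.2% of thinned *in vitro* cells, 13.5% and 9.43% of slice 3 weeks cells, 6.47% and 7.69% at 1 week and 2.44% and 2.66% at 1 day. Before thinning, the shares were 74.3% and 87.4% *in vitro*, 25.2% and 17.0% at 3 weeks, 19.6% and 19.7% at 1 week and 5.79% and 8.09% at 1 day. The count of 0 in adult allows up to 0.0790% of cells in replicate 1 and 0.0851% in replicate 2 to hold a *Gpnmb* UMI, at median depths of 3257 and 1858 UMIs, and does not limit the share of cells that express it at a low level. In neutrophil-rich cells, described below, the unthinned share was 0% and 2.86% at 1 day and 4.35% at 1 week replicate 1, and no such cells were there to give a background at slice 3 weeks or *in vitro*.

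*Cst7* was seen in most cells of slice 3 weeks, in 58.9% (95% exact binomial interval 56.0 to 61.8) and 76.1% (74.7 to 77.4) of thinned cells, and in 0.895% to 15.4% of thinned cells in the other 8 libraries. Its level in slice 3 weeks was spread over cells, with 41.9% and 34.5% of thinned UMIs in the top 10% of cells. *Spp1* was unequal, with 82.9% and 92.3% of its thinned UMIs at slice 3 weeks in the top 10% of cells, against 51.4% to 74.6% in the slice 1 day, slice 1 week and *in vitro* libraries. At slice 3 weeks 59.8% and 23.2% of thinned cells held an *Spp1* UMI, and the highest thinned cell held 533 and 183 of its 1800 UMIs. *Igf1* was seen in 23.0% to 26.8% of thinned cells in the slice 1 day and 3 weeks libraries, 36.5% and 39.6% at 1 week and 63.2% and 65.9% *in vitro*. As background, 3.51% and 27.6% of neutrophil-rich cells at slice 1 day and 17.4% at 1 week replicate 1 held an *Igf1* UMI before thinning, against 52.7%, 65.0% and 84.8% of the other cells. *Itgax* was in at most 4.68% of thinned cells of any library. These intervals cover counting error only.

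**Figure D2:**
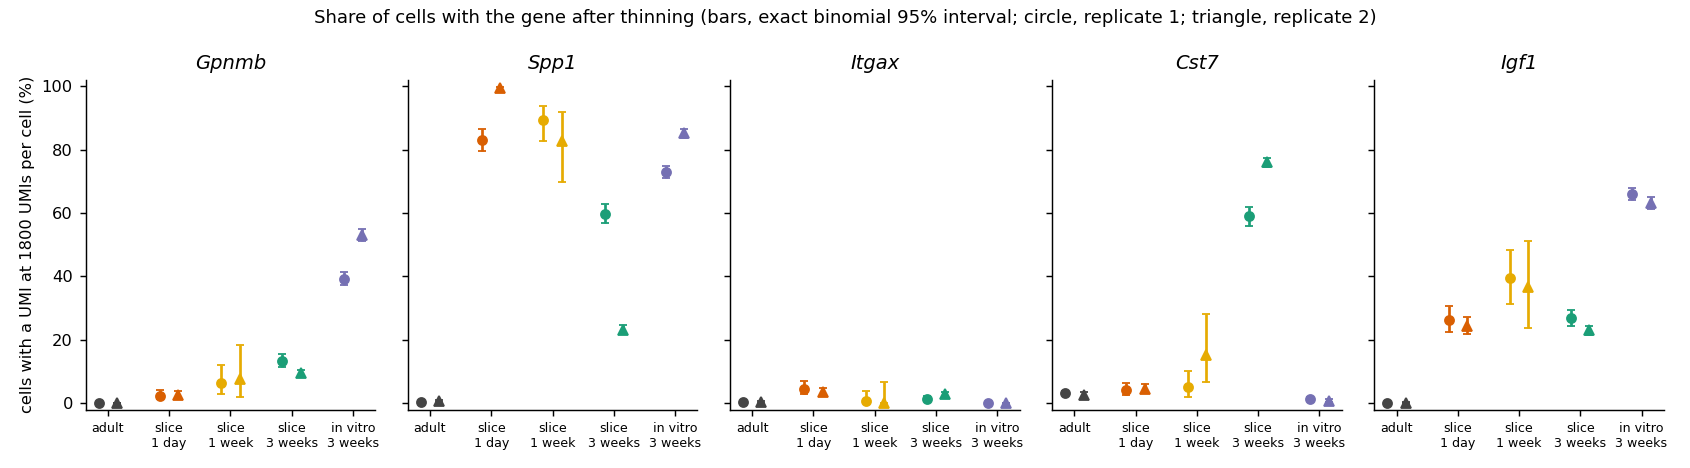
Percent of cells with a UMI of each gene after thinning to 1800 UMIs per cell, per library, with exact binomial 95% intervals (circle, replicate 1; triangle, replicate 2). *Cst7* is in 58.9% and 76.1% of slice 3 weeks cells, and *Gpnmb* is in 0 of the adult and in 39.3% and 53.2% of the *in vitro* cells.

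Neutrophil-rich cells, which should hold little *Spp1*, were used as the background. They had an *Spp1* UMI in 80.7% and 100% of cells at slice 1 day (median depth 2295 and 5233 UMIs) and in 100% at 1 week replicate 1 (4412 UMIs), where the other cells had 96.8%, 100% and 97.6% (6839, 8815 and 7291 UMIs). The share of cells with *Spp1* at these times was therefore not read as a share of expressing cells. Free RNA and doublets were not tested as sources, and no doublets were called. The levels differed, at 2677, 2154 and 847 CPM in neutrophil-rich cells against 11812, 12536 and 5959 CPM in the other cells. *Igf1* was at 13.2, 50.6 and 35.3 CPM in neutrophil-rich cells and at 287, 248 and 407 CPM in the others, and *Cst7* at 6.61, 6.83 and 0 CPM against 29.6, 30.7 and 45.8 CPM. *Itgax* did not follow them, at 33.1 and 16.4 CPM in neutrophil-rich cells of slice 1 day and 19.7 and 13.9 CPM in the others. Neither slice 3 weeks nor *in vitro* libraries held a neutrophil-rich cell.

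Within libraries, cells with *Gpnmb* also held *Spp1* more often. Among thinned cells of slice 3 weeks, *Spp1* was in 75% and 48.0% of cells with *Gpnmb* and in 57.5% and 20.6% of those without, and *in vitro* in 82.8% and 90.8% against 66.6% and 78.7%. The mean log2 odds ratio was 1.41 ± 0.30 (SD, n = 4 libraries), positive in 4 of 4, with an exact sign-flip p = 0.125, the smallest that 4 libraries allow, and an adjusted p = 0.357 over the 40 within-library tests. *Gpnmb* with *Igf1* had a mean log2 odds ratio of 1.03 ± 0.92 (SD, n = 5 libraries), and was positive in 5 of 5 (exact sign-flip p = 0.0625, adjusted p = 0.227). That relation was 2.00 and 1.48 at slice 3 weeks and 1.58 at slice 1 day replicate 2, but 0.02 and 0.08 *in vitro*, where *Igf1* was in 66.1% and 63.8% of cells with *Gpnmb* and in 65.8% and 62.5% of those without. *Spp1* with *Igf1* was positive in 5 of 5 libraries, at a mean of 0.63 ± 0.43 (SD), with an exact sign-flip p = 0.0625 and an adjusted p = 0.227. *Gpnmb* with *Cst7* ran from -0.60 to 1.02 over 5 libraries and gave no 1 direction. *Spp1* with *Cst7* ran from -0.70 to 3.11 over 5 libraries, positive in 2, and was -0.03 and -0.70 at slice 3 weeks. None of the 40 tests passed an adjusted p of 0.05, and 4 libraries cannot reach an unadjusted p of 0.05.

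The cells of slice 3 weeks were then ordered by their *Spp1* level, in a second random draw of 1800 UMIs per cell. *Gpnmb* was seen in 6.57% and 6.62% of cells with 0 *Spp1* UMIs, 11.4% and 10.5% with 1 to 4, 28.2% and 29.0% with 5 to 19, and 46.6% and 43.8% with 20 or more. *Igf1* went the same way, from 19.5% and 18.7% to 56.8% and 60.7%. *Cst7* went the other way, from 63.2% and 77.9% in cells with 0 *Spp1* UMIs to 44.3% and 56.2% in cells with 20 or more. Split only by an *Spp1* UMI, in the first draw, *Cst7* was in 58.73% of replicate 1 cells with it and 59.25% without. In replicate 2 these shares were 68.93% and 78.22%. The intervals of the lowest and highest *Spp1* classes did not overlap for any of the 3 genes in either library. These intervals cover counting error over the cells of 1 library only. No test over libraries was made for these classes. A cell with 20 or more *Spp1* UMIs has fewer of its 1800 UMIs left for other genes, and the part of this in the lower *Cst7* share was not tested. *In vitro*, *Gpnmb* went from 24.2% and 30.6% to 62.9% and 61.0%, and *Cst7* stayed between 0 and 1.67%. Slice 1 day differed. In its replicate 1, from 0 to 20 or more *Spp1* UMIs, *Gpnmb* went from 2.56% to 1.71% and *Cst7* from 1.28% to 5.13%. There *Igf1* went from 15.4% to 37.6%. In its replicate 2, from 1 to 4 up to 20 or more, *Gpnmb* went from 3.06% to 5.20% and *Cst7* from 5.57% to 5.58%. *Igf1* went from 21.2% to 33.8% there. At least 3 of the 5 genes were seen together in 17.6% and 9.98% of thinned cells at slice 3 weeks, 21.8% and 32.6% *in vitro*, 2.44% to 11.5% at slice 1 day and 1 week, and 0 of 3386 and 0 of 1909 adult cells. These are shares of cells with UMIs, and slice 3 weeks and *in vitro* had no neutrophil-rich cells to give their background.

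**Figure D3:**
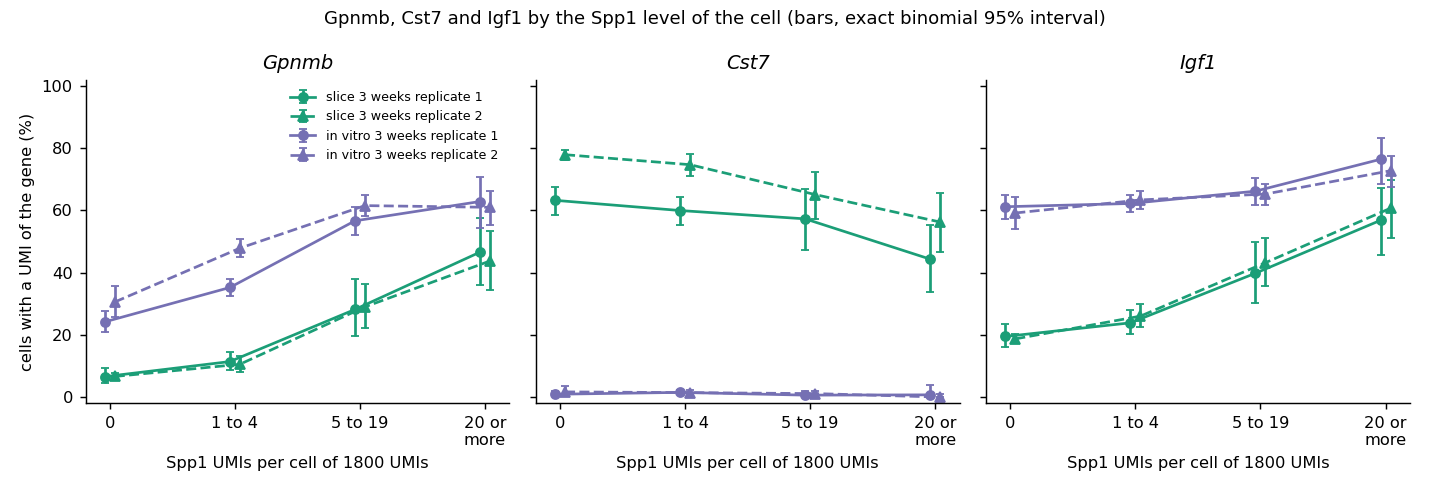
Percent of cells with a UMI of *Gpnmb*, *Cst7* or *Igf1* by the *Spp1* UMIs of the cell, after thinning to 1800 UMIs, in the slice 3 weeks and *in vitro* libraries, with exact binomial 95% intervals. At slice 3 weeks *Gpnmb* and *Igf1* are higher and *Cst7* lower in the cells with 20 or more *Spp1* UMIs.

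Cells with each gene were then compared with cells without it for 6 lists of other genes. With *Gpnmb*, homeostatic genes were lower in 5 of 5 libraries (mean log2 ratio of list UMIs -0.59 ± 0.28, SD) and the other disease-associated genes higher in 5 of 5 (0.35 ± 0.23), each with an exact sign-flip p = 0.0625, the smallest for 5 libraries, and an adjusted p = 0.227. Inflammatory genes were lower with *Gpnmb* in 5 of 5 (-0.27 ± 0.14, SD), and the other disease-associated genes higher with *Spp1* in 5 of 5 (0.18 ± 0.13), at the same exact p and adjusted p. At slice 3 weeks, homeostatic genes had 14.1 and 10.2 UMIs per thinned cell with *Gpnmb* and 25.1 and 19.2 without. With *Igf1*, the other disease-associated genes (0.28 ± 0.18, SD) and the inflammatory genes (0.32 ± 0.23) were higher in 7 of 7 libraries and the proliferation genes lower in 7 of 7 (-0.81 ± 0.42), each with an exact sign-flip p = 0.0156 and an adjusted p = 0.208. With *Cst7*, homeostatic genes differed by -0.01 ± 0.12 (SD) over 8 libraries, higher in 3 of 8 (exact sign-flip p = 0.883), and the other disease-associated genes by 0.11 ± 0.12, higher in 7 of 8 (exact sign-flip p = 0.0313, adjusted p = 0.227). Interferon and MHC class II genes were higher in some libraries and lower in others with each of *Gpnmb*, *Spp1*, *Cst7* and *Igf1*. The *Itgax* comparisons had 3 libraries, which allow no p under 0.25.

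Border macrophage markers were then summed over all cells of a library, not thinned, with and without a UMI of each gene, and differed at slice 3 weeks. They summed to 340 and 330 CPM in cells with *Gpnmb* and 156 and 104 CPM in cells without, to 218 and 256 against 96.5 and 65.9 CPM for *Spp1*, and to 275 and 226 against 125 and 75.7 CPM for *Igf1*. For *Cst7* the order was reversed, at 180 and 132 CPM in cells with it and 420 and 411 CPM in cells without. *In vitro*, where the sum of these markers was high throughout, cells with *Gpnmb* held 4374 and 4358 CPM and cells without 5358 and 5075 CPM, and at slice 1 day the values were 201 and 364 CPM with *Gpnmb* and 419 and 336 CPM without. At slice 1 week replicate 1 they were 643 CPM with *Gpnmb* and 474 CPM without. For *Igf1* they were 578 and 335 CPM with and 176 and 345 CPM without at 1 day, and 588 and 402 CPM with and 255 and 165 CPM without at 1 week. These are values over the cells of 1 library each, and the part of such cells in the co-detection of *Gpnmb*, *Spp1* and *Igf1* was not tested. In adult, cells with *Spp1* held 2 and 1 border macrophage UMIs in all.

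**Figure D4:**
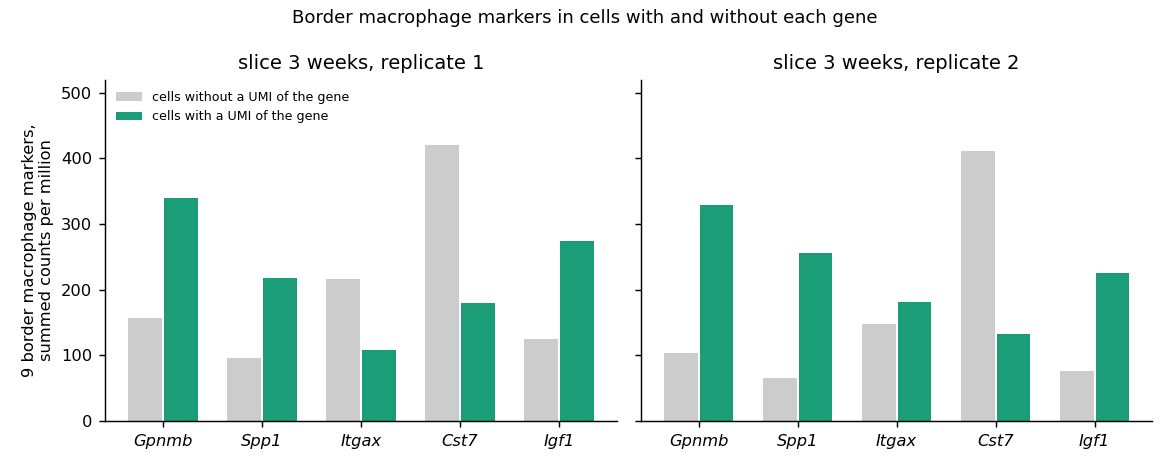
Summed CPM of 9 border macrophage markers in all slice 3 weeks cells, not thinned, with (green) and without (grey) a UMI of each gene, 1 panel per library, on a linear axis from 0. The green bar is the higher for *Gpnmb*, *Spp1* and *Igf1* in both libraries and the lower for *Cst7*.

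The remaining genes of the disease-associated state were compared between groups with edgeR's quasi-likelihood test (FDR < 0.05 and a fold over 1.5), in 5 lists by role that held 61 genes, of which 59 were tested. These lists, and the role lists below, were chosen with earlier results of these data known. Their counts are therefore a description and not independent support for the state. Against adult, 33 rose and 11 fell at slice 1 day, 35 rose and 4 fell at 1 week, 48 rose and 0 fell at 3 weeks, and 33 rose and 7 fell *in vitro*. Of all tested genes, 24.9% rose and 25.3% fell at 1 day, 15% and 13.6% at 1 week, 17.9% and 17.5% at 3 weeks and 22.4% and 28.5% *in vitro*. The list medians were log2 0.99, 1.10, 1.75 and 1.22, and those of all tested genes -0.06, -0.09, -0.03 and -0.11. The count of 0 at 3 weeks was also 0 with DESeq2, and 1 gene was lower at an unadjusted p of 0.05 in edgeR. Scaled by library size alone, which shifts the median of all genes to -0.30 and -0.42, the counts were 31 up and 9 down at 1 week and 31 up and 12 down *in vitro*. Leaving out 1 library moved the smaller counts: the 4 that fell at 1 week were 2 without adult replicate 1 and 0 without slice 1 week replicate 1, and the 0 at 3 weeks was 1 without slice 3 weeks replicate 1. The 4 comparisons share their adult libraries.

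The lipid genes had the highest median of the 5 lists in each comparison with adult. Of 13, 11 rose at slice 1 day, 12 at 1 week, 12 at 3 weeks and 12 *in vitro*, where 1 fell, with medians of log2 4.93, 4.84, 4.81 and 4.52. *Fabp5*, a fatty acid binding protein, went from 2.12 and 1.16 CPM in adult to 906 and 672 CPM at 1 day, 374 and 289 CPM at 3 weeks and 795 and 1330 CPM *in vitro* (log2 8.83 ± 0.40, 7.58 ± 0.39 and 9.26 ± 0.41, SE). *Apoe*, the main lipoprotein of glia, was at 1027 and 670 CPM in adult and 65849 and 63891 CPM at slice 1 week (log2 6.26 ± 0.27, edgeR adjusted p = 4.45e-07). *Lpl*, lipoprotein lipase, reached 1125 and 1593 CPM at slice 3 weeks from 17.3 and 27.3 CPM in adult (log2 5.94 ± 0.30). *Lgals3*, the secreted lectin galectin-3, was at 3.81 and 3.99 CPM in adult and between 675 and 2509 CPM in the 8 cultured libraries (log2 8.78 ± 0.59 at slice 1 day and 8.93 ± 0.59 *in vitro*). All 4 of these genes were called higher in each of the 4 comparisons with adult.

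Of the 12 lysosome genes, 11 rose from slice 1 day to 3 weeks. Against adult, 3 rose and 5 fell at slice 1 day, 4 rose and 1 fell at 1 week, and 9 rose and 0 fell at 3 weeks, while 3 rose and 1 fell *in vitro*. *Ctsd*, the aspartic protease cathepsin D, fell from 10111 and 8173 CPM in adult to 3448 and 3002 CPM at 1 day (log2 -1.50 ± 0.19) and was at 25962 and 19600 CPM at slice 3 weeks (log2 2.82 ± 0.20 against 1 day, edgeR adjusted p = 5.78e-05). *Hexa*, a lysosomal hexosaminidase, fell at 1 day (log2 -1.78 ± 0.16) and rose from there to 3 weeks (1.91 ± 0.16). *Trem2*, the lipid receptor upstream of the disease-associated state, fell to 918 and 827 CPM at 1 day from 3229 and 2588 CPM in adult (log2 -1.74 ± 0.16), was at 3193 and 3823 CPM at 3 weeks, and rose from 1 day to 3 weeks by log2 2.01 ± 0.17. Between slice 1 day and 3 weeks, 30 of the 59 rose and 10 fell, against 13.9% and 12.8% of all tested genes, and without slice 1 day replicate 2 the count that fell was 6. Among those that fell were *Msr1*, a scavenger receptor (log2 -3.34 ± 0.23), *Plin2*, a lipid droplet coat protein (-2.30 ± 0.16), and *Cybb*, an NADPH oxidase subunit (-1.75 ± 0.40). Neutrophil markers were at 7946 and 23214 CPM at 1 day and 83.6 and 61.0 CPM at 3 weeks, and monocyte markers at 702 and 1005 CPM and 233 and 151 CPM. Without neutrophil-rich cells 29 rose and 10 fell, and the part of monocytes was not tested.

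The *in vitro* and slice 3 weeks cells differed in both directions. Of the 59, 14 were higher *in vitro* and 25 lower, where 13.3% and 19.9% of all tested genes were. *Lyz2*, lysozyme (log2 3.36 ± 0.28), *Cybb* (2.40 ± 0.40), *Fabp5* (1.68 ± 0.28) and *Apoe* (1.55 ± 0.22) were higher *in vitro*. The border macrophage markers were also higher there, at 4565 and 4425 CPM against 209.5 and 151 CPM at slice 3 weeks, and their part in these changes was not tested. *Serpine2*, a secreted protease inhibitor, was at 20.3 and 20.9 CPM *in vitro* and 1441 and 1661 CPM at slice 3 weeks (log2 -6.23 ± 0.18, edgeR adjusted p = 5.66e-08), and the tetraspanin *Cd9* (-2.91 ± 0.17) and *Cd83* (-2.24 ± 0.17) were also lower. Of 13 receptor genes, 1 was higher and 9 were lower *in vitro* than at slice 3 weeks. Of 12 homeostatic microglia genes, all 12 fell *in vitro*, at slice 1 day and at 1 week against adult and 10 fell at 3 weeks, with medians of log2 -5.54, -3.66, -2.02 and -1.66. Of all tested genes, 28.5%, 25.3%, 13.6% and 17.5% fell in these comparisons. The fall of *Fcrls* *in vitro* was lost with DESeq2 size factors. At slice 3 weeks against adult, 7 of 10 inflammatory genes rose and 1 fell, 2 of 12 interferon genes rose and 0 fell (2 were lower at an unadjusted p of 0.05), 1 of 6 MHC class II genes rose and 4 fell, and 10 of 11 proliferation genes rose. Of all tested genes, 17.9% rose and 17.5% fell in this comparison, so the interferon rises were near the share of all genes. The rise of *Il1b*, an inflammatory gene, was lost with library size alone. The MHC class II rise was *H2-Ab1*, whose libraries overlapped (38.2 and 125 CPM against 41.2 and 28.5 CPM in adult) and whose call was lost with library size alone, and the fall of *H2-DMa* was lost with DESeq2 size factors.

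**Figure D5:**
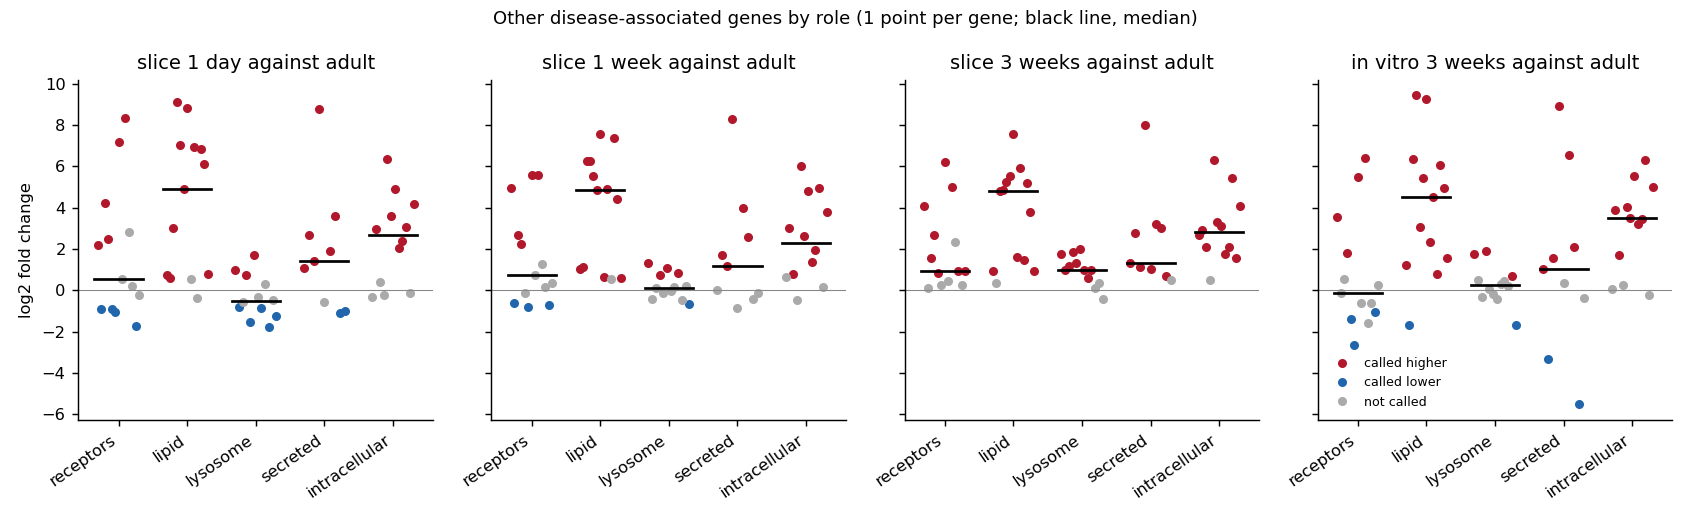
Log2 fold change against adult of 59 other disease-associated genes, 1 point per gene, in 5 lists by role, with red for genes called higher, blue for called lower, grey for not called and a black line at the list median. Lipid genes have medians between 4.52 and 4.93 in all 4 comparisons, and no gene is called lower at slice 3 weeks.

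Genes that act on, with or beside the 5 were followed by role. For *Gpnmb*, 8 of 11 genes of the MiT/TFE factors and the osteoclast programme that shares them were tested. Of these, 5 rose and 1 fell at slice 1 day and *in vitro*, and 4 rose and 1 fell at 1 week and at 3 weeks, where 24.9% and 25.3%, 22.4% and 28.5%, 15% and 13.6%, and 17.9% and 17.5% of all tested genes did. Of the factors, *Mitf* rose *in vitro*, to 34.6 and 32.4 CPM from 16.7 and 21.1 CPM in adult, a call lost with library size alone. *Tfec* rose at slice 1 day and 1 week and *in vitro* but was not called at 3 weeks. It was at 15.7 and 14.1 CPM at 1 day against 0.952 and 0.386 CPM in adult, and at 19.5 and 15.6 CPM *in vitro*, while *Tfe3* fell in all 4 comparisons, from 99.98 and 98.3 CPM in adult to 53.3 and 56.1 CPM at slice 3 weeks and 49.5 and 43.4 CPM *in vitro*. *Atp6v0d2*, a subunit of the vacuolar proton pump, was at 0 in both adult libraries, 3.93 and 3.40 CPM at 1 day, 8.89 and 5.12 CPM at 1 week, 33.6 and 27.7 CPM at 3 weeks and 20.7 and 31.5 CPM *in vitro*, and it rose in all 4 comparisons. *Acp5*, the tartrate-resistant phosphatase of osteoclasts, had the order of *Spp1* within the slices, with 41.1 and 23.5 CPM at 1 day, 28.7 and 12.8 CPM at 1 week and 0.388 and 0.745 CPM at 3 weeks, and was at 0.482 and 0.561 CPM *in vitro* (log2 -5.63 ± 0.47 from 1 day to 3 weeks, edgeR adjusted p = 8.16e-05).

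Among 8 tested receptors of osteopontin, *Cd44* and *Itga4*, a chain of the alpha 4 integrins, rose in all 4 comparisons with adult. *Cd44* was at 0.513 and 0.129 CPM in adult, 81.0 and 73.7 CPM at slice 1 day, 35.6 and 20.5 CPM at 1 week, 15 and 18.8 CPM at 3 weeks and 54.5 and 72.8 CPM *in vitro*, so that its order within the slices was that of *Spp1*. *Itgb5* fell in all 4 comparisons. *Itgb3*, the beta chain of the vitronectin receptor, fell at slice 1 day (log2 -3.70 ± 0.43), at 1 week (-2.09 ± 0.63) and *in vitro* (-5.62 ± 0.40) and was at 11.3 and 12.6 CPM at slice 3 weeks, against 13 and 11.2 CPM in adult. From slice 1 day to 3 weeks, 4 of the 8 receptors rose and 4 fell, where 13.9% and 12.8% of all tested genes did.

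Of 8 tested genes of the insulin-like growth factor axis, 3 rose and 2 fell at slice 1 day, 4 rose and 0 fell at 1 week, 3 rose and 2 fell at 3 weeks and 2 rose and 2 fell *in vitro*. With library size alone the rise of *Igfbp4* at 1 day was lost, as were those of *Igf1r* at 1 week and 3 weeks. The rise of *Igfbp7* at 1 week rests on 1 library (18.8 and 0 CPM). Of all tested genes, 24.9% rose and 25.3% fell at 1 day, 15% and 13.6% at 1 week, 17.9% and 17.5% at 3 weeks and 22.4% and 28.5% *in vitro*. *Igfbp4*, a binding protein that holds IGF1 in the medium, was at 492 and 385 CPM *in vitro*, 159 and 182 CPM at slice 1 week, 19.3 and 10.6 CPM at 3 weeks and 36.9 and 27.3 CPM in adult (log2 3.77 ± 0.29 *in vitro* against adult and -1.14 ± 0.28 at 3 weeks). *Igfbp6* was highest at slice 1 day, at 38.8 and 24.5 CPM against 0.440 and 0.902 CPM in adult (log2 5.64 ± 0.42). *Igf2r*, the receptor that clears IGF2 to lysosomes, was at 0 in adult and at 8.91 and 11.6 CPM at slice 1 day.

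Among the partners of CD11c, *Itgb2*, the beta chain it needs at the surface, fell at slice 1 day (log2 -0.68 ± 0.18), at 1 week (-0.58 ± 0.18, a call lost with DESeq2 size factors) and *in vitro* (-1.07 ± 0.18) and was at 468 and 329 CPM at slice 3 weeks against 331 and 367 CPM in adult. *Itgam*, the CD11b chain used in the sort, fell *in vitro* (-0.89 ± 0.15). *Itgal*, another alpha chain of the beta 2 integrins, was at 0.0732 and 0 CPM in adult and rose in all 4 comparisons, to 18.9 and 11.9 CPM at slice 1 day and 11.5 and 5.89 CPM *in vitro*. Over the 8 tested partners, 1 rose and 3 fell at slice 1 day and at 1 week, 2 rose and 1 fell at 3 weeks, and 1 rose and 4 fell *in vitro*. The shares of all tested genes in these 4 comparisons were 24.9% and 25.3%, 15% and 13.6%, 17.9% and 17.5%, and 22.4% and 28.5%.

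Cathepsins and other cystatins were tested beside *Cst7*. Cathepsin L, *Ctsl*, one of the proteases that cystatin F can inhibit, rose in the slices, to 5090 and 4089 CPM at 3 weeks from 1321 and 963 CPM in adult (log2 2.01 ± 0.21), and was at 842 and 1166 CPM *in vitro*, lower than at slice 3 weeks by log2 -2.19 ± 0.21 (edgeR adjusted p = 3.75e-05). *Ctsc*, which activates granule proteases, rose at slice 1 day (0.72 ± 0.19) and fell from there to 3 weeks (-0.89 ± 0.19). *Cst3*, the secreted cystatin C, fell in all 4 comparisons, from 63304 and 52692 CPM in adult to 10637 and 9699 CPM at slice 3 weeks, while *Cstb*, the cytosolic cystatin B, rose in all 4, to 611 and 433 CPM at 3 weeks from 144 and 146 CPM. From slice 1 day to 3 weeks *Cst3* rose (log2 1.97 ± 0.24) and *Cstb* fell (-1.02 ± 0.18). Over the 9 tested genes, 6 rose and 2 fell from slice 1 day to 3 weeks, where 13.9% and 12.8% of all tested genes did.

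The genes whose levels most resembled each of the 5 were taken by Pearson's r of log2(CPM + 1) over the 10 libraries, which fall into 5 groups of 2 and share depth differences and culture, among 3646 other genes that averaged 5 or more in log2 CPM. *Gpnmb* was most like *Gm1673* (r = 0.986), *Atox1* and *Rftn1* (both 0.985). *Spp1* was most like *Tspo* (0.989), *Tpm4* (0.988) and *Tpd52* (0.986). *Itgax* was most like *Actr1b* (0.971), *Calu* (0.946) and *Hsp90b1* (0.945). *Cst7* was most like *Colgalt1* (0.972), *Apbb2* (0.958) and *Ssr4* (0.950), and *Igf1* most like *Emp3* (0.992), *Plin3* (0.990) and *Anxa5* (0.990). Among the 5 themselves, r was 0.962 for *Spp1* with *Igf1*, 0.911 for *Gpnmb* with *Igf1*, 0.784 for *Gpnmb* with *Spp1* and 0.611 for *Itgax* with *Cst7*, and lay between -0.243 and 0.209 for the other 6 pairs. These values share the counts on which the 5 genes were selected and are a description.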

How the data were processed

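Microglia were sorted and sequenced per the labels with the 10x Genomics 3' kit, and the submitters' processing notes name Cell Ranger 1.3.0 and mm10. The deposited files held UMI counts per gene symbol and barcode, made by the authors and not normalized, with 1 table per library. No doublets were called, and none are stated to have been removed. By the limits that the study's methods give, a cell was kept with at most 5% mitochondrial UMIs, at least 400 genes and at most 30000 UMIs, and a gene missing from a table counted as 0. The study's further removal of outliers by t-SNE was not repeated, so the cells differ from the study's set, and the 148 and 61 cells kept at slice 1 week are more than it states.

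The 5 genes and all gene lists were chosen with earlier results of these data known. The kept cells of a library were added up to 1 count per gene, which made the library the replicate. Sums were scaled by TMM, filtered with filterByExpr (minimum count 10) and fitted over all 5 groups with edgeR 4.0.16 in R 4.3.3 by the quasi-likelihood test. Genes were called at a Benjamini-Hochberg adjusted p under 0.05 and a fold over 1.5. With 2 libraries per group, p-values measure only the spread between these libraries (biological coefficient of variation 18.3%). Called genes of lists with 15 genes or fewer could be named, with the 4 largest rises and 3 largest falls of the disease-associated lists taken among called genes averaging 5 or more in log2 CPM, and the 3 genes most correlated with each of the 5 genes by the same minimum.

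Within libraries, cells were thinned at random to 1800 UMIs, and a pair or list was compared where a library had at least 20 cells with and 20 without the gene. Log2 odds ratios or log2 ratios (0.5 added) were tested over libraries by a 2-sided exact sign-flip permutation test, with Benjamini-Hochberg adjustment over 40 tests. Intervals are exact at 95%, cover counting error only, and a count of 0 allows 3 counts. Scripts were tested on simulated data. The lists covered other disease-associated, homeostatic, inflammatory, interferon, MHC class II and proliferation genes and the role lists of the report. Promoters came from RefSeq. Replicate numbers did not pair the libraries (correlations of deviations -0.11 to 0.094).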

Additional observations from a re-analysis of the deposited data

How the results depend on the processing

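The levels of the 5 genes and the counts of calls were recomputed with DESeq2 size factors, library size alone, no filter on low counts, all barcodes, the TST11247 libraries alone and each library left out. Fitted fold changes and counts of calls were also recomputed with the study label as a covariate and the replicate block, which give no value for the *Gpnmb* bounds over adult, and counts of calls with the DESeq2 Wald test. Values within libraries were recomputed after thinning to 1000 or 3000 UMIs. Leaving out neutrophil-rich cells was chosen after seeing the data, because the planned mark of 4 or more neutrophil markers took 993 of 1014 cells of slice 1 day replicate 2. Where fewer than 20 cells with or without a gene were left, an alternative gave no value.

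The log2 lower bounds of *Gpnmb* over adult were 12.24, 7.15, 9.14 and 10.43 (*in vitro*, slice 1 day, 1 week and 3 weeks). With TST11247 alone, which leaves out adult replicate 1 and slice 3 weeks replicate 1, they were 10.78, 5.69, 7.67 and 8.61, and they ranged with 1 library left out over 10.88 to 12.53, 5.73 to 7.27, 7.72 to 9.31 and 9.02 to 10.77. With TST11247 alone, *Igf1* against adult was 9.22 *in vitro*, 8.40 at 1 week and 7.56 at 3 weeks, and *Spp1* 7.22 at 3 weeks. Library size alone gave 11.94 for *Gpnmb* and 9.14 for *Igf1* *in vitro*. With the study label as covariate *Itgax* was -4.00 *in vitro* and 1.96 at 1 day, and without neutrophil-rich cells -1.95 at 1 week. With 1 library left out, *Itgax* ranged over -4.68 to -2.77 *in vitro* and -1.62 to -0.19 at 1 week, and *Cst7* *in vitro* over -1.56 to -0.84. No sign changed among these, and the cause of the shifts was not tested.

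Of the other disease-associated genes, library size alone called 12 lower *in vitro*, 9 at 1 week and 1 at 3 weeks, and TST11247 alone called 1 at 3 weeks. With 1 library left out, the counts called lower were 0 to 5 at 1 week, 0 to 1 at 3 weeks and 6 to 11 from slice 1 day to 3 weeks. *Itgax* with MHC class II genes, -0.17 over 3 libraries, was 0.02 when thinned to 3000 UMIs, where the sign turned. Over all tested genes, library size alone gave 2017 up and 4718 down *in vitro*, against 2719 and 3461.

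The replicate numbers did not pair the libraries. With the replicate block, 33, 33, 34 and 47 of the other disease-associated genes rose *in vitro*, at 1 day, 1 week and 3 weeks and 8, 11, 5 and 0 fell, and the block moved no count of calls by over 1.5 times.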
